A study of Mus musculus with 3 samples.

Results

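Kit, Kitl, Cxcl12 and Cxcr4 are the 4 genes of 2 of the ligand and receptor pairs through which gonadal somatic cells act on germ cells. Their levels were followed across the cell types of thawed fetal ovarian somatic cells (FOSCs). The genes were chosen by name, as 4 of the 18738 genes listed in the count tables, and all 4 were detected in each of the 3 lots. FOSCs were prepared from E12.5 ovaries of CD1 mouse embryos, with the fetal ovaries of 10 pregnant females pooled per lot. The mesonephros was dissected away, and cells that bound antibodies to SSEA1, a surface sugar of early germ cells, or CD31, the product of Pecam1, were held back on a magnetic column (MACS). The flow-through was frozen in vials, and lots 26, 29 and 30 were thawed and profiled with the 10X Genomics 3′ v3 kit, which reads the 3′ end of polyadenylated RNA and counts unique molecular identifiers (UMIs). The 3 lots are samples of 1 condition, so comparisons were made between cell types, with the lots as replicates (n = 3). Germ-like and endothelial-like cells in these data are those that passed the column, and whether the column removed cells according to their level of Kit or Cxcr4 was not tested.

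KIT is a receptor tyrosine kinase of primordial germ cells, mast cells, melanocytes and blood progenitors, and its ligand, stem cell factor, is encoded by Kitl. Somatic cells along the migration route and in the gonad present stem cell factor in membrane-bound and shed forms, and germ cells depend on it to survive, divide and move. CXCL12 is a secreted chemokine that attracts cells carrying the G-protein-coupled receptor CXCR4, germ cells on their way to the gonad and many endothelial and blood cells among them.

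The tables held between 8567 and 10773 barcodes and between 87494974 and 141920060 UMIs per lot, with lot 29 the shallowest, and 28971 of 29103 barcodes passed the quality filters. Pairs of lots shared 20 to 30 barcodes. Clustering gave 22 clusters, which were named only from lists of marker genes that hold none of the 4 genes, and the 4 genes did not enter the clustering. The cells comprised 11899 pre-granulosa-like, 6089 epithelial-like and 6046 stromal-like cells, together called the 3 large somatic classes, with 1473 germ-like, 349 endothelial-like, 133 macrophage-like and 78 red-blood-cell-like cells. All 8 listed markers were raised in the germ-like, endothelial-like and pre-granulosa-like classes, although Foxl2 reached only 5.0 CPM (UMIs per 1000000 UMIs of the class and lot) in the last. Ddx4, which marks germ cells, stood at 239 ± 4.75 CPM (SD, n = 3 lots) in germ-like cells and at 1.32 to 1.67 CPM in the large somatic classes. Pecam1 stood at 314 ± 173 CPM in endothelial-like and 51.8 ± 4.71 CPM in germ-like cells. Granulocyte genes such as S100a8 and Camp also led the macrophage-like class. Germ-like cells took 7.72% of lot 26, 3.94% of lot 29 and 3.61% of lot 30. Clusters 3, 5 and 13 of the stromal-like class held none of the stromal markers among their 10 leading genes, and cluster 9 held 1. Pre-granulosa-like clusters 1 and 2 and epithelial-like clusters 6 and 8 likewise held none of the markers of their class there. Cluster 2 of the pre-granulosa-like class was led in part by heat-shock genes and had 2936 of its 3200 cells in lot 30.

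The 4 genes lie on different chromosomes of GRCm38, and no other annotated gene overlaps any of them. Kit (ENSMUSG00000005672) is at chr5:75574916-75656722 on the plus strand. Kitl (ENSMUSG00000019966) is at chr10:100015630-100100416 and Cxcl12 (ENSMUSG00000061353) at chr6:117168535-117181367, both on the plus strand. Cxcr4 (ENSMUSG00000045382) is at chr1:128588199-128592293 on the minus strand. The bases just upstream of the first annotated transcript are shown for each gene, from RefSeq on GRCm38.p6, 5′ to 3′ on the strand of the gene. Capitals mark the GC box GGGCGG or its reverse complement CCGCCC, and the TATA box TATAAA or its reverse complement TTTATA.
Kit, chr5:75574766-75574915: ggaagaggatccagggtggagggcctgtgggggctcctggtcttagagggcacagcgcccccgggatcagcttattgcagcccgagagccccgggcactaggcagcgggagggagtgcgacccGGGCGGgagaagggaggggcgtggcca
Kitl, chr10:100015571-100015629: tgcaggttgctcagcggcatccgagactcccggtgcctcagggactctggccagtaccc
Cxcl12, chr6:117168385-117168534: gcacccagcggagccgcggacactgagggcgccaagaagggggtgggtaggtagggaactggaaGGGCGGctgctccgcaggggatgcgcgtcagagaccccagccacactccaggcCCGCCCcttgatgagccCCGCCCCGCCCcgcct
Cxcr4, chr1:128592300-128592449: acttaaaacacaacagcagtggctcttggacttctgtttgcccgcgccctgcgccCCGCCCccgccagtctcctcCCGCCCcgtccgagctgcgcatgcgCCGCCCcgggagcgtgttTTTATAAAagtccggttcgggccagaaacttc

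These windows held 1 GC box for Kit, 4 for Cxcl12, 3 for Cxcr4 and none for Kitl, whose window is only 59 bases long. Windows at the same distance and of the same length held a GC box in 19.4% of 27025 RefSeq promoters for Kit, in 29% for Cxcl12 and Cxcr4, and in 5.75% for Kitl. A TATA box was found only in the Cxcr4 window, where TTTATAAA holds it on both strands, and 8.08% of promoters have one in that stretch. The last pair of GC boxes of Cxcl12 overlaps, and none of these matches was tested as a binding site.

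Among the named classes Kit, the receptor of stem cell factor, was highest in germ-like cells. Their summed UMIs gave 90.5 CPM in lot 26, 84.9 in lot 29 and 84.0 in lot 30, a mean of 86.5 ± 3.53 (SD, n = 3 lots). Endothelial-like cells followed with 54.7, 37.5 and 47.2 CPM in the same order of lots (46.4 ± 8.62), and no endothelial-like sum reached a germ-like one. Macrophage-like cells varied most, with 39.0, 28.6 and 9.65 CPM from 36, 8 and 7 UMIs, and overlapped the endothelial-like range. Dazl, a germ cell gene, was also raised in macrophage-like cells, with 55.1 ± 7.53 CPM beside 3.55 to 4.15 CPM in the large somatic classes, and its part in their Kit level was not tested.

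In the 3 large somatic classes Kit was low. Pre-granulosa-like cells gave 11.4, 7.78 and 9.45 CPM and stromal-like cells 8.98, 9.19 and 9.22 CPM, so these overlapped. Epithelial-like cells were below both in every lot, with 4.29, 2.75 and 3.40 CPM. Red-blood-cell-like cells held 1 Kit UMI in 78 cells. Although germ-like cells were few, they supplied 58.3%, 49.0% and 44.0% of all Kit UMIs of lots 26, 29 and 30, and the far more numerous pre-granulosa-like cells supplied 21.3% ± 4.96 (SD, n = 3).

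A Kit UMI was found in 74.8% ± 1.0 (SD, n = 3) of germ-like cells, whose median depth was 18134 to 23767 UMIs per lot. Depth differed between classes, so each cell was also thinned to 4000 UMIs. At that depth Kit was seen in 29.2% of germ-like cells of lot 26 (95% interval by Clopper-Pearson from 26 to 32.6), 25.6% of those of lot 29 (21.0 to 30.6) and 25.9% of those of lot 30 (21.6 to 30.6). These intervals overlap and cover counting error only. The thinned share was 18.1% ± 3.98 in endothelial-like, 3.50% ± 0.906 in pre-granulosa-like, 3.64% ± 0.151 in stromal-like, 1.18% ± 0.220 in epithelial-like and 0 of 75 red-blood-cell-like cells with enough UMIs. A single germ-like cell held up to 21 Kit UMIs.

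**Figure D1:**
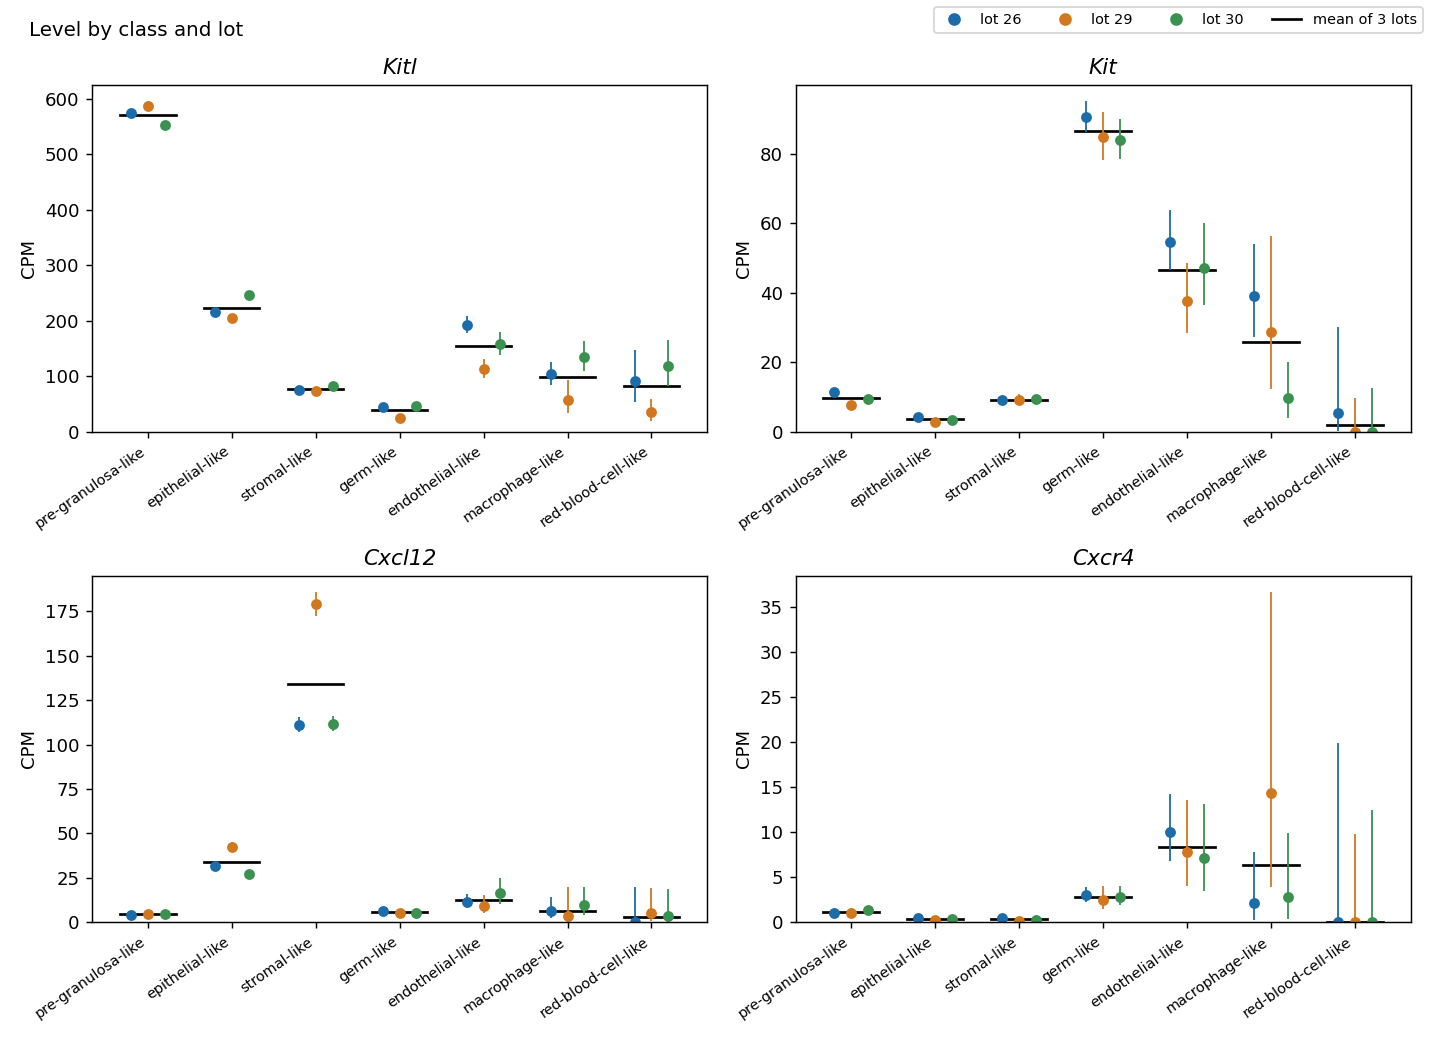
Level of Kit, Kitl, Cxcl12 and Cxcr4 in CPM (linear axes) of the UMIs summed per cell class, with 1 point per lot, its exact Poisson 95% interval, and a bar at the mean of the 3 lots. Germ-like cells lead for Kit at 84.0 to 90.5 CPM, pre-granulosa-like for Kitl at 552 to 587, stromal-like for Cxcl12 at 111 to 179, and endothelial-like cells sit at 7.14 to 10.0 for Cxcr4.

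Kitl, which encodes stem cell factor, was read mainly in pre-granulosa-like cells. Lots 26, 29 and 30 gave 573.9, 587.1 and 552.1 CPM, a mean of 571 ± 17.7 (SD, n = 3). Epithelial-like cells had 214.7, 204.1 and 246.7 CPM (222 ± 22.2) and stromal-like cells 75.5, 73.0 and 82.9 CPM (77.1 ± 5.12), so the 3 large somatic classes did not overlap. Pre-granulosa-like cells supplied 66.4% ± 1.61 of the Kitl UMIs of a lot, epithelial-like cells 19.0% ± 3.53 and stromal-like cells 4.50% ± 0.0813. Sertoli-like cells, which number only 16 in lot 30, stood between the first 2 classes with 308, 339 and 377 CPM. The authors took the Sertoli cells of these lots as contaminating cells with a testis identity and left them out.

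Endothelial-like cells gave 192, 113 and 158 CPM of Kitl, below epithelial-like and above stromal-like cells in every lot. Macrophage-like cells gave 103, 57.2 and 134 CPM and red-blood-cell-like cells 91.9, 34.5 and 118, and both overlapped the endothelial-like and the stromal-like sums. Germ-like cells had 45, 23.8 and 45.1 CPM and overlapped red-blood-cell-like cells. They also overlapped the 53 Schwann and chromaffin-like cells, which gave 69.1, 20.6 and 69.4 CPM. After thinning to 4000 UMIs, 83.6% ± 0.354 of pre-granulosa-like, 45.5% ± 4.39 of epithelial-like and 38.6% ± 6.76 of endothelial-like cells had a Kitl UMI. The share was 17.6% ± 0.789 in stromal-like and 10.8% ± 4.14 in germ-like cells, beside 15% ± 6.72 in red-blood-cell-like cells, which should lack the gene. Median depths before thinning were 7736 to 9741 UMIs per lot in stromal-like and 7490.5 to 12097 in red-blood-cell-like cells. The germ-like share was not above the red-blood-cell-like one and is not read as expression, and the stromal-like share lay within its spread. The parts of free RNA and of doublets in these shares were not tested.

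The Kitl UMIs of each class were set beside its summed UMIs of the 8 pre-granulosa markers. Per 100 such UMIs, Kitl had 13.5 in pre-granulosa-like cells (12.51 to 13.9 over the lots), 11.3 in germ-like (10.4 to 12.3), 12.8 in stromal-like (10.8 to 14.0) and 11.4 in macrophage-like cells (8.57 to 15.6). The stromal-like and macrophage-like ratios overlapped the pre-granulosa-like one, while the germ-like ratio was below it in every lot. Epithelial-like cells were higher with 22.9 (19.1 to 26) and endothelial-like cells with 31.7 (23.9 to 39.9), and red-blood-cell-like cells spread from 10.3 to 35.1. Without barcodes called doublets, Kitl fell to 16.5 ± 8.28 CPM in germ-like cells and stood at 58.4 ± 2.77 in stromal-like and 120 ± 53.6 in endothelial-like cells. The germ-like ratio was then 7.05 to 9.40, further below the pre-granulosa-like 12.48 to 13.9.

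Cxcl12, the chemokine, was highest in stromal-like cells, with 111.3, 179.1 and 111.8 CPM in lots 26, 29 and 30 (134 ± 39.0, SD, n = 3). Lot 29 stood above the other 2. The level was not even over the class, with cluster means from 31.2 CPM in cluster 3 to 563 CPM in cluster 13. Epithelial-like cells gave 31.8, 42.3 and 27.3 CPM (33.8 ± 7.68), again with lot 29 highest, and none of their sums reached a stromal-like one. Stromal-like cells supplied 61.2% ± 2.90 of the Cxcl12 UMIs of a lot and epithelial-like cells 22.7% ± 2.12.

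Pre-granulosa-like cells, which led for Kitl, had only 4.09, 4.74 and 4.84 CPM of Cxcl12. Germ-like cells had 6.08, 5.41 and 5.34 CPM, above the pre-granulosa-like sum in every lot. Without doublets this order turned in lots 29 and 30, with 4.60, 3.49 and 3.67 CPM in germ-like beside 4.11, 4.71 and 4.79 in pre-granulosa-like cells, so these classes cannot be ranked. Endothelial-like cells had 11.3, 9.05 and 16.4 CPM. Per 100 UMIs of the 8 stromal markers, Cxcl12 had 4.53 in stromal-like cells (3.37 to 6.47 over the lots). Germ-like cells had 4.25 (2.99 to 6.41), endothelial-like 3.43 (2.77 to 3.87) and epithelial-like 3.31 (2.73 to 4.23), overlapping the stromal-like range. The germ-like and epithelial-like ratios were below the stromal-like one in every lot. Pre-granulosa-like cells had 2.17 (1.76 to 2.50). Without doublets the germ-like ratio spread from 2.94 to 8.68. At 4000 UMIs per cell, 21.0%, 27.5% and 22.2% of stromal-like cells of the 3 lots had a Cxcl12 UMI, beside 9.83% ± 2.14 of epithelial-like, 3.88% ± 1.76 of endothelial-like, 2.08% ± 0.921 of germ-like and 1.78% ± 0.184 of pre-granulosa-like cells. Red-blood-cell-like cells had 3 Cxcl12 UMIs in all and none after thinning.

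Cxcr4, the receptor of CXCL12, was sparse, with 176, 85 and 152 UMIs in lots 26, 29 and 30. Endothelial-like cells led with 10.0 CPM (exact Poisson 95% interval 6.75 to 14.3), 7.76 (4.01 to 13.5) and 7.14 CPM (3.43 to 13.1), a mean of 8.30 ± 1.5 from 52 UMIs. Germ-like cells had 3.04 CPM (2.29 to 3.95), 2.48 (1.45 to 3.98) and 2.82 CPM (1.87 to 4.08), a mean of 2.78 ± 0.279 from 100 UMIs. The lot values of both classes do not overlap, although their counting intervals do in lot 30. Macrophage-like cells ranged from 2.17 to 14.3 CPM on 8 UMIs and cannot be placed.

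Pre-granulosa-like cells had 1.08, 1.08 and 1.35 CPM of Cxcr4, below germ-like cells in every lot. Epithelial-like cells had 0.331 ± 0.123 CPM from 31 UMIs and stromal-like cells 0.310 ± 0.166 from 20 UMIs, and these overlapped. No Cxcr4 UMI was found in 78 red-blood-cell-like cells, which allows up to 3.85% of cells with a UMI, whatever the share that express the gene, and a level of up to 3.50 CPM, a bound above the germ-like level. At 4000 UMIs per cell the share was 3.28% ± 2.01 in endothelial-like, 1.66% ± 0.305 in germ-like, 0.462% ± 0.132 in pre-granulosa-like, 0.115% ± 0.0129 in epithelial-like and 0.0841% ± 0.0552 in stromal-like cells, and the germ-like share was above the last 3 in every lot. By number of UMIs, pre-granulosa-like cells supplied 37.3% ± 10.4 of a lot's Cxcr4 and germ-like cells 23.2% ± 7.0.

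**Figure D2:**
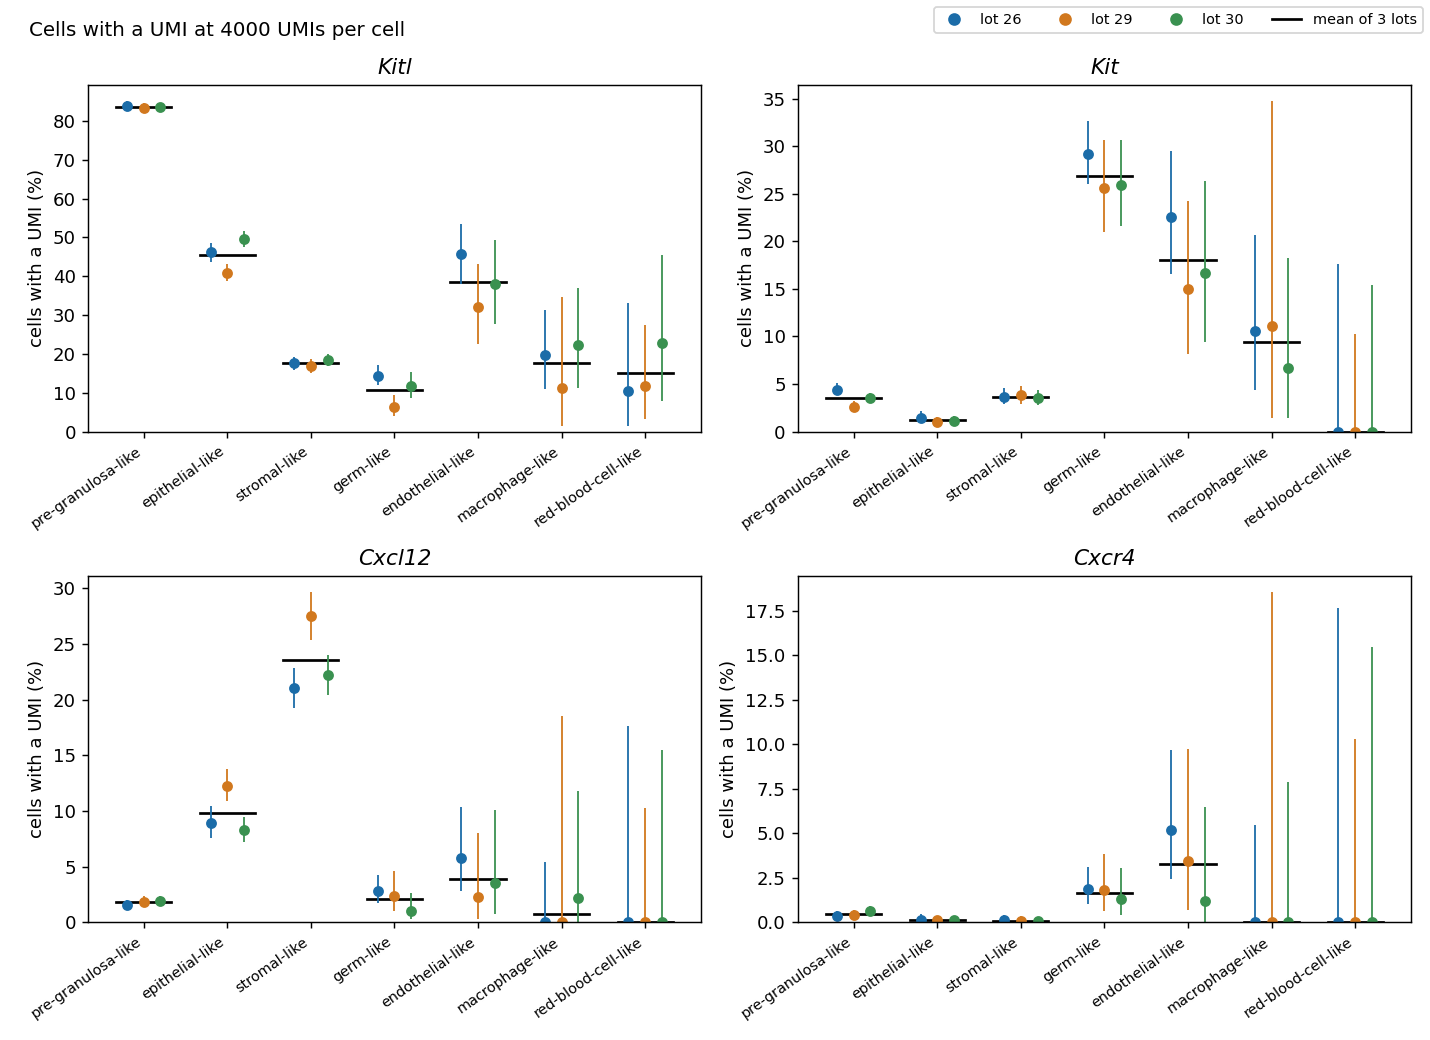
Percent of cells with at least 1 UMI of each gene after every cell was thinned to 4000 UMIs, by class, with 1 point per lot and its exact Clopper-Pearson 95% interval. For Kit the germ-like lots lie at 25.6% to 29.2% and the stromal-like mean is 3.64%, while for Kitl the pre-granulosa-like mean is 83.6% and the red-blood-cell-like mean 15%.

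**Figure D3:**
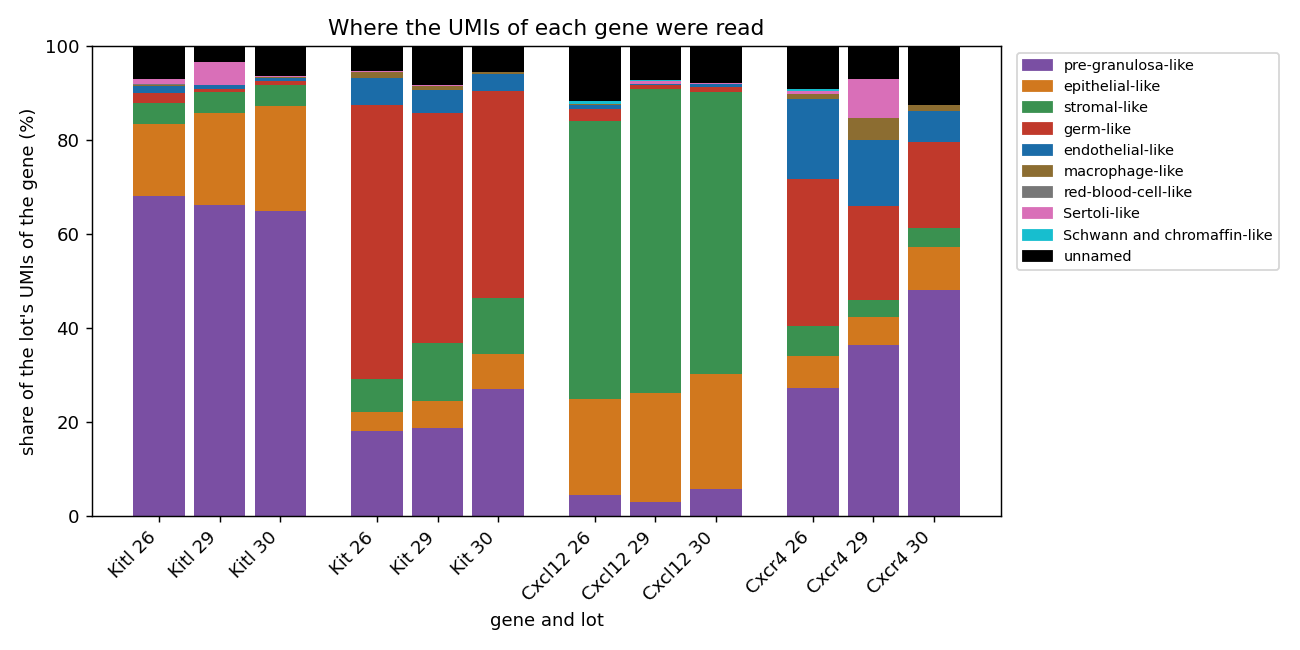
Percent of all UMIs of each gene in a lot that came from each class, as stacked bars for lots 26, 29 and 30. Germ-like cells supplied 44.0% to 58.3% of Kit, pre-granulosa-like cells 66.4% of Kitl on average and stromal-like cells 61.2% of Cxcl12.

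Whether the 4 genes differed between germ-like cells and the ovarian somatic cells was tested on UMIs summed per class and lot. All 7 classes with enough cells, 21 sums in all, entered 1 edgeR quasi-likelihood model, with Benjamini-Hochberg adjustment over the 14432 genes tested and a threshold of 0.05. The 3 large somatic classes were averaged on the log2 scale with equal weight. The comparisons below share classes and lots, so their values stand side by side and do not support one another. In this one 76.8% of all genes passed, 36.7% higher and 40.1% lower in germ-like cells, so a call by itself says little about a gene.

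Kit was 12.4-fold higher in germ-like cells (log2 fold change 3.63, SE 0.12, adjusted p = 9.07e-18), and 595 of the 14432 genes differed by more. Cxcr4 was 5.31-fold higher (2.41, SE 0.27, adjusted p = 4.32e-08), with 1042 genes further out. Both ligands were lower. Kitl fell by 2.55 on the log2 scale (SE 0.18, adjusted p = 6.78e-12) and Cxcl12 by 2.34 (SE 0.20, adjusted p = 2.21e-10), each in 3 of 3 lots against the mean of the somatic classes. For Cxcl12 that mean covers unlike classes, since pre-granulosa-like cells, at 4.56 ± 0.407 CPM, stood near the germ-like 5.61 ± 0.407 and above it without doublets (4.54 beside 3.92).

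Receptor relays were read from lists, of which 1 holds 32 genes that act below KIT (adaptors, kinases, phosphatases). Of its 32 members tested, 8 rose, 16 fell and 8 did not pass in germ-like cells, with a median log2 fold change of -0.31 beside -0.08 over all genes. Ptpn6, the phosphatase SHP-1 that damps KIT and other receptors, rose most at 4.37, from 1.56 to 2.39 CPM in the large somatic classes to 41.6 in germ-like cells, and macrophage-like cells had 128 CPM. Of the genes for catalytic subunits of phosphoinositide 3-kinase, Pik3cb rose by 2.84 and Pik3cd by 2.14 while Pik3ca fell by 0.56, and the regulatory subunit gene Pik3r1 fell by 2.47.

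The list below CXCR4 has 20 genes (G proteins, arrestins, receptor kinases, Rac regulators), of which 19 were tested. In germ-like cells 3 rose, 13 fell and 3 did not pass, with a median of -0.55. Elmo1, a partner of Rac-activating exchange factors, rose by 1.61, whereas the G-protein genes Gng2 and Gnai2 fell by 2.67 and 1.49. Ackr3, the scavenging receptor of CXCL12, fell by 2.22, from 0.941 to 5.45 CPM in the large somatic classes to 0.389 CPM.

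Of 29 other chemokine and receptor genes 20 were tested, and 4 rose, 5 fell and 11 did not pass, with a median of 0.74. Cxcl14 rose by 3.76 and the fractalkine receptor gene Cx3cr1 by 1.98, although Cx3cr1 stood at 1.61 CPM in germ-like and 424 CPM in macrophage-like cells. Cxcl13 fell by 3.31 and the scavenger Ackr4 by 2.25. Of 11 relatives of Kit and their ligands 10 were tested, and 4 rose, 5 fell and 1 did not pass, with a median of -1.09. Those with the largest differences were Pdgfra, Pdgfc, Il34 and Pdgfrb, which fell by 2.59, 2.38, 2.34 and 1.78 and encode receptors and ligands of the PDGF and CSF1 systems.

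Germ-like and endothelial-like cells, in which both receptors stood above the 3 large somatic classes in every lot, were then set against each other. In this comparison 60.7% of genes passed, 32.4% higher and 28.3% lower in germ-like cells. Kit was 1.84-fold higher in germ-like cells (log2 fold change 0.88, SE 0.18, adjusted p = 0.000225, edgeR), and higher in 3 of 3 lots. Cxcr4 was lower in germ-like cells (-1.61, SE 0.34, adjusted p = 0.000358), again in 3 of 3 lots. Kitl (-2.03, SE 0.20, adjusted p = 6.23e-09) and Cxcl12 (-1.08, SE 0.33, adjusted p = 0.00695) were lower too. Without lot 30 the call for Cxcl12 was lost (-0.82, adjusted p = 0.0829).

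In the lists, germ-like cells had 7 genes of the KIT relay higher and 18 lower (median -0.51 beside 0.09 over all genes). Of the CXCR4 relay 15 were lower and the other 4 did not pass (median -1.02). Other chemokine genes had 1 higher and 3 lower (median -0.29), and relatives of Kit 3 higher and 4 lower (median -0.59). Ptpn6 (4.94) and Pik3cd (2.41) were higher, and the Src-family kinase genes Lyn (-4.34) and Fyn (-2.39) lower. Ackr3 (-4.12), Gng2 (-3.36), Gnai2 (-3.10), Arrb1 (-2.48), Ackr1 (-4.62), Cxcl1 (-4.56), Cx3cl1 (-2.01) and Pdgfb (-5.24) were lower, on the log2 scale. Pdgfa (2.78), Csf1r (3.07) and Ccl25 (0.89) were higher, but Csf1r lost its call without lot 26 (1.71, adjusted p = 0.40) and without doublets (2.43, adjusted p = 0.202). Csf1r, a receptor gene of macrophages, stood at 1.39 CPM in germ-like and 337 CPM in macrophage-like cells. Ccl25 lost it without lot 26, 29 or 30 (adjusted p = 0.194, 0.0779 and 0.0951). Flt3l passed with 0 UMIs in endothelial-like cells, so no fold is given, and it too lost its call without each lot in turn (adjusted p = 0.0552, 0.102 and 0.0697).

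Endothelial-like cells were next compared with the mean of the 3 large somatic classes, where 41.3% of genes passed, 17.1% higher and 24.1% lower. Cxcr4 was 16.2-fold higher (log2 fold change 4.02, SE 0.33, adjusted p = 1.60e-09), with 292 genes further out, and Kit 6.75-fold higher (2.75, SE 0.17, adjusted p = 2.58e-12), with 512 further out. Each was higher in 3 of 3 lots. Cxcl12 was lower (-1.26, SE 0.26, adjusted p = 0.000333). Kitl was also called lower (-0.52, SE 0.16, adjusted p = 0.0111), but its adjusted p was 0.156 without lot 30, 0.0587 with another scaling of the libraries, 0.0623 with DESeq2 and 0.0584 under a stricter cell filter. The other scaling, by median ratios (RLE), also moved the share of higher genes among all calls from 41.5% to 52.1%.

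Of the KIT relay 10 genes rose, 4 fell and 18 did not pass (median 0.13 beside -0.15 over all genes), and of the CXCR4 relay 12 rose, 2 fell and 5 did not pass (median 0.60). Lyn rose most of the KIT relay, by 4.69 on the log2 scale to 69.4 CPM, followed by the adaptor Sh2b3 (2.50), the transcription factor Foxo1 (2.31) and Stat5a (1.56), whose call was lost without lot 26 (adjusted p = 0.170). Elmo1 (3.28), the arrestin gene Arrb1 (2.51) and Gnai2 (1.61) rose, as did Ackr3 (1.90), which lost its call without lot 26 (adjusted p = 0.0849).

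Among other chemokine genes 4 rose, 1 fell and 15 did not pass (median -0.05), and among relatives of Kit 2 rose, 6 fell and 2 did not pass (median -1.53). Pdgfb, the endothelial ligand of PDGFRB, rose by 6.62 to 43.7 CPM and Csf1 by 2.22, while Pdgfc fell by 1.72 and Il34 by 1.81. The call for Il34 was lost without lot 29 (adjusted p = 0.0786) or lot 30 (0.0502). The scavenger Ackr1 (4.28) rose, with Cxcl2 (3.82), Cxcl14 (3.03) and Cxcl1 (2.69). Without lot 29 the calls for Cxcl2 (3.57, adjusted p = 0.0813) and Cxcl1 (2.53, adjusted p = 0.0779) were lost at a similar size, while Cxcl14 rested on lot 26 (0.52 without it, adjusted p = 0.870). Cxcl14 had 2.13 CPM in endothelial-like and 2.11 in epithelial-like cells.

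The order of the ligands among somatic cells was tested pair by pair. Between stromal-like and pre-granulosa-like cells 50.6% of genes passed, 23.8% higher and 26.8% lower in stromal-like cells. Cxcl12 was 27.0-fold higher in stromal-like cells (log2 fold change 4.75, SE 0.21, adjusted p = 3.82e-15), and only 135 of 14432 genes differed by more. Kitl was lower (-3.02, SE 0.20, adjusted p = 4.90e-12), with 167 genes further out. Each held in 3 of 3 lots, so the 2 classes ranked in opposite order for the 2 ligands. Cxcr4 was lower in stromal-like cells (-1.99, SE 0.37, adjusted p = 0.000107), and Kit did not pass (-0.19, SE 0.17, adjusted p = 0.365).

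Stromal-like cells also had more Cxcl12 than epithelial-like cells, by 3.80-fold (1.93, SE 0.18, adjusted p = 5.56e-09), in a comparison in which 32.9% of genes passed, 17.4% higher and 15.5% lower. Kit was 2.51-fold higher (1.33, SE 0.19, adjusted p = 4.89e-06) and Kitl lower (-1.59, SE 0.19, adjusted p = 2.75e-07). Cxcr4 did not pass (-0.14, SE 0.45, adjusted p = 0.853). Without lot 30 only 1661 genes were higher and 1256 lower in stromal-like cells, instead of 2513 and 2231, and 1409 were lower without lot 26. With the lot as a block 3658 were lower.

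Epithelial-like cells differed from pre-granulosa-like cells in all 4 genes, beside 45.4% of all genes, 20.4% higher and 25% lower in epithelial-like cells. Cxcl12 was 7.10-fold higher (2.83, SE 0.20, adjusted p = 2.88e-11). Kitl (-1.43, SE 0.18, adjusted p = 8.25e-07), Kit (-1.52, SE 0.18, adjusted p = 2.71e-07) and Cxcr4 (-1.86, SE 0.34, adjusted p = 0.000116) were lower. For each of these 4 genes the lots of both classes did not overlap, but the share of all genes for which this holds was not counted.

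The lists added to this picture in stromal-like against pre-granulosa-like cells. Of the KIT relay 12 rose, 6 fell and 14 did not pass (median 0.20 beside -0.03), led by Pik3r1 (2.13), Sh2b3 (1.43), Pik3cd (1.25) and Gab2 (1.15). Of the CXCR4 relay 6 rose, 4 fell and 9 did not pass (median 0.05). Ackr3 (2.36) and the receptor kinase gene Grk5 (2.06) rose there, while Elmo1 fell by 1.65 and Rac2 by 3.61. Other chemokine genes had 6 higher, 3 lower and 11 not passed (median 0.72), with Ccl11 (5.06), Cxcl13 (4.52), Ackr1 (2.55) and Ccl2 (2.27) highest. Ackr1 lost its call without lot 30 (adjusted p = 0.0915) and Ccl2 without lot 29 (0.0573) or lot 30 (0.115). Relatives of Kit had 5 higher, 3 lower and 2 not passed (median 0.20), and Pdgfrb, Pdgfra and Csf1 rose by 3.84, 3.83 and 3.80 while Pdgfa fell by 1.28.

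Against epithelial-like cells, stromal-like cells had 13 genes of the KIT relay higher and 1 lower (median 0.31), with Lyn 2.31, Gab2 1.38, Sh2b3 1.35 and Pik3cb -1.26 on the log2 scale. The CXCR4 relay had 5 higher and 4 lower (median -0.04), with Arrb1 1.84, Grk5 1.72, Dpp4 -1.61 and Rac2 -1.71. Other chemokine genes had 4 higher and 2 lower (median 0.24), with Ccl11 5.21, Cxcl13 2.89, Ccl2 2.67 and Cxcl14 -4.02. Relatives of Kit had 3 higher and 4 lower (median -0.33), with Pdgfrb 3.32, Pdgfra 1.94, Csf1 1.78 and Pdgfa -1.96. Without lot 29 or lot 30 the call for Ccl2 was lost (adjusted p = 0.0840 and 0.118). Dpp4 encodes the protease that clips CXCL12 to an inactive form.

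Between epithelial-like and pre-granulosa-like cells, the KIT relay had 5 genes higher and 11 lower (median -0.18), with Pik3r1 1.73, Pik3cd 1.57, Stat5a -0.97 and Lyn -1.30 on the log2 scale. The CXCR4 relay had 4 higher and 6 lower (median 0.05), with Dpp4 2.81, Gnai1 0.70, Arrb1 -0.86 and Rac2 -1.90. Other chemokine genes had 5 higher and 2 lower (median 0.11), with Cxcl14 3.95, Ackr1 1.96, Cxcl13 1.63 and Ackr4 -1.44. Of the relatives of Kit 7 were higher and the other 3 did not pass (median 0.80), with Pdgfc 2.27, Csf1 2.03, Pdgfra 1.90 and Pdgfd 1.16. The call for Stat5a was lost without lot 26, 29 or 30 (adjusted p = 0.116, 0.0546 and 0.0577), that for Arrb1 without lot 30 (0.0926) and that for Csf1 without lot 26 (0.105). Cxcl13 was 0.17 without lot 26 (adjusted p = 0.865) and -0.13 without doublets (0.846), and Ackr1 lost its call without lot 29 (0.0537) or lot 30 (0.260).

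Within classes the clusters spread widely. Cxcl12 was highest in cluster 13 of the stromal-like class, whose leading genes are Dkk2 and Foxd1, with 539.7, 725.4 and 422.7 CPM (563 ± 153, SD, n = 3). Cluster 9, whose leading genes include Lum and Gdf10, had 266, 233 and 375 CPM (291 ± 73.8), below cluster 13 in every lot. Cluster 5, led in part by cell-cycle genes, had 97.1 ± 28.8 and cluster 3 only 31.2 ± 5.23. Cluster 3 made up 44.5%, 39.6% and 46.4% of stromal-like cells of lots 26, 29 and 30. Its 29.4, 37.0 and 27.1 CPM were below the 31.8, 42.3 and 27.3 CPM of the epithelial-like class in the same lots. Cluster 13 made up 5.04%, 11.5% and 7.16% of stromal-like cells of lots 26, 29 and 30 and was thus most frequent in lot 29, where the Cxcl12 level of the class was highest. Its part in that level was not tested.

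These Cxcl12-rich clusters differed in Kitl. Cluster 13 had 104 ± 53.7 CPM, the highest mean of the 4 stromal-like clusters, although its lots spread from 57.8 to 163, and cluster 9 had 28.4 ± 7.19, the lowest of the 4 in every lot. Within the pre-granulosa-like class Kitl stood at 668 ± 29.8 in cluster 1, 562 ± 27.0 in cluster 2 and 523 ± 35 in cluster 0. Epithelial-like clusters 4, 8 and 6 had 279 ± 19.6, 246 ± 16 and 205 ± 22.1 CPM. Cluster 10, an epithelial-like cluster led by Pappa2, Upk1b and Hand2, stood apart, with 47.6 ± 4.96 CPM of Kitl and 64.5 ± 10.7 of Cxcl12. Among epithelial-like clusters that is the lowest Kitl and the highest Cxcl12 level. It held no Cxcr4 UMI in 918 cells, which allows up to 0.333 CPM, a bound that does not set it apart from the class mean. Kit in cluster 13 was 20.02 ± 4.79 CPM, above the other stromal-like clusters in every lot.

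**Figure D4:**
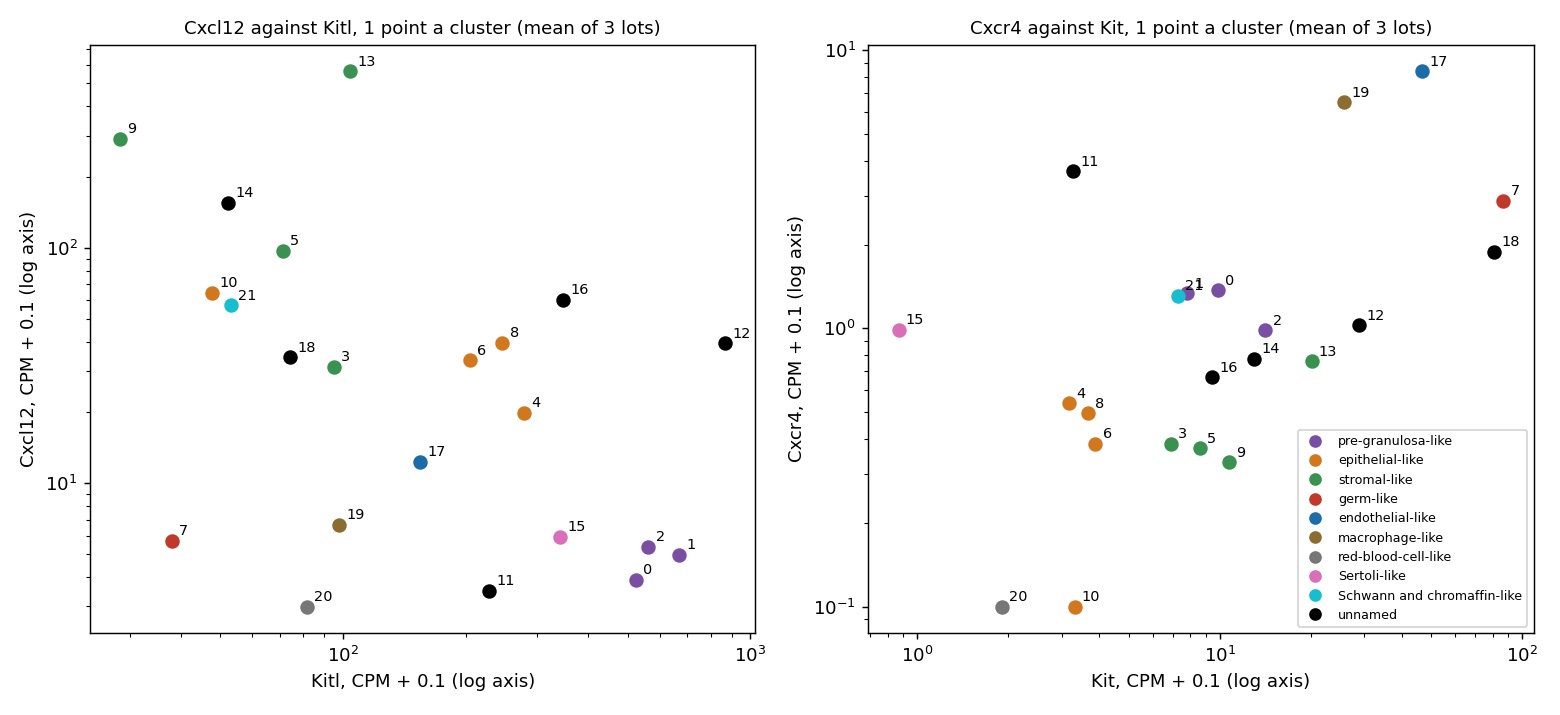
Level of Cxcl12 against Kitl, and of Cxcr4 against Kit, in each of the 22 clusters, as CPM + 0.1 on log axes, with 1 point per cluster coloured by class. The stromal-like clusters 13 and 9 sit at 563 and 291 CPM of Cxcl12 with 104 and 28.4 CPM of Kitl, and the pre-granulosa-like clusters at 523 to 668 CPM of Kitl with 3.79 to 5.27 CPM of Cxcl12.

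The 2 ligands were also set against each other in single cells of each class, and none of these differences was tested. At 4000 UMIs per cell, Kitl was seen in 29.9%, 20.9% and 42.6% of epithelial-like cells of lots 26, 29 and 30 that had a Cxcl12 UMI, and in 47.8%, 43.6% and 50.2% of those that had none. The share was lower with Cxcl12 in 3 of 3 lots. Cluster 10, with the lowest Kitl and the highest Cxcl12 level of the epithelial-like clusters, is among these cells, and its part was not tested. Stromal-like cells gave 15.4%, 13.6% and 17% with Cxcl12 against 18.1%, 18.0% and 18.8% without, close to the share in red-blood-cell-like cells. In pre-granulosa-like cells the shares were close, at 87.3%, 83.6% and 86.2% of the 63, 61 and 87 cells with Cxcl12. Those without Cxcl12 gave 83.9%, 83.3% and 83.5%, and so few cells with Cxcl12 do not settle an order. Only 10, 2 and 3 endothelial-like cells had Cxcl12, too few to read. Kit and Cxcr4 were seen together in 4, 3 and 0 germ-like cells of 746, 336 and 382, so their overlap cannot be read at this depth.

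Germ cells of the fetal ovary enter meiosis around this stage and switch on Stra8, a meiotic gatekeeper. Germ-like cells thinned to 4000 UMIs were therefore split into 1114 cells with a Stra8 UMI and 350 cells without, and counts were summed per lot. Before thinning only 81, 40 and 29 germ-like cells of lots 26, 29 and 30 had no Stra8 UMI. The 350 cells thus include cells whose Stra8 UMIs were lost in thinning, and they are not all Stra8-negative. Kit was 85.2, 66.8 and 83.1 CPM in cells with Stra8 (78.4 ± 10.1, SD, n = 3) and 120.8, 89.9 and 114.2 CPM in cells without (108 ± 16.3). It was lower with Stra8 in 3 of 3 lots, while the lot ranges overlapped, and lot 29 was lowest on both sides.

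In the model without a term for the lot, Kit did not pass (log2 fold change -0.51, SE 0.17, adjusted p = 0.0786, edgeR), while 5.31% of the 7926 genes tested did, 2.85% higher and 2.46% lower with Stra8. With the lot as a block, which the shared pool of cells allows, Kit passed at the same size (-0.51, adjusted p = 0.0122), and calls rose from 226 higher and 195 lower to 612 and 684. Kitl was 39.3, 18.2 and 32.4 CPM with Stra8 and 66.7, 28.1 and 64.8 without, also lower in 3 of 3 lots (-0.84, SE 0.28, adjusted p = 0.0786, with the block -0.83 and 0.00178). Without doublets the adjusted p of Kitl was 0.440, and its direction turned in lot 30. There it had 17.6 CPM with Stra8 (18 UMIs) beside 7.69 without (2 UMIs), too few to settle a direction. In the split without thinning the direction of Kitl turned in lot 29, with 24.8 CPM beside 16.3. The part of free RNA or doublets in the Kitl of germ-like cells was not tested.

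Cxcr4 rested on 16 and 9 UMIs in the split and did not pass the filter on low counts, with 3.98, 4.05 and 2.49 CPM with Stra8 beside 6.94, 5.62 and 6.17 without. Cxcl12 did not pass it either. A finer clustering parted germ-like cells into cluster 7 and a small cluster 25, led by Figla, Sycp3 and Tex12, with Stra8 at 1776, 1796 and 1656 CPM in lots 26, 29 and 30. Kit stood there at 43.6, 56.6 and 57.3 CPM beside 94.9, 86.5 and 85.1 in cluster 7. Cluster 25 held no Cxcr4 UMI in 112 cells, which allows up to 2.68% of cells with a UMI and does not bound the share that express the gene. These cluster values are given as a description, without a test.

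Of the KIT relay 22 genes were tested in the split and 0 passed in edgeR, with 5 at an unadjusted p under 0.05 and 0 by DESeq2, while 2 fell with the block, Akt1 and Pik3cd, and 4 passed without thinning (Foxo3, Fyn, Pik3cd and Ptpn6, 1 higher and 3 lower). Of the CXCR4 relay 14 were tested and 0 passed in edgeR, with 0 at an unadjusted p under 0.05 and 0 by DESeq2. The only relative of Kit tested, Pdgfa, did not pass in this fit (-0.45, adjusted p = 0.0967) but was lower with Stra8 with the block and without thinning. No other chemokine gene passed the filter.

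**Figure D5:**
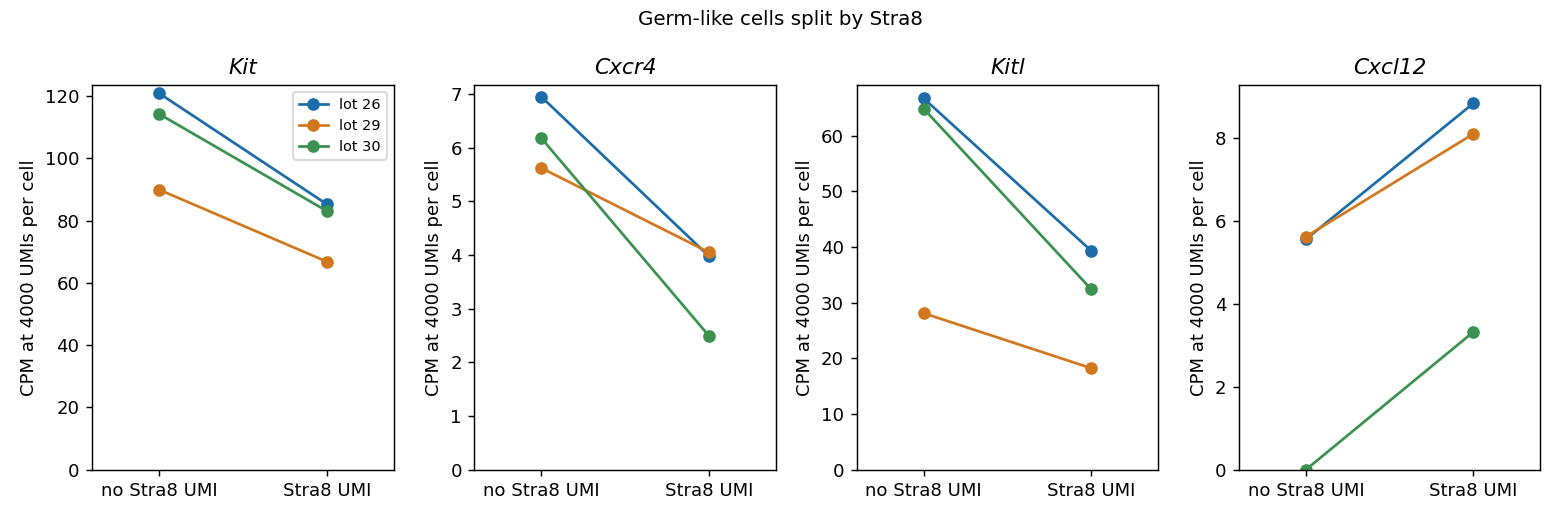
Level of Kit, Kitl, Cxcr4 and Cxcl12 in germ-like cells without and with a Stra8 UMI after thinning to 4000 UMIs, in CPM of the thinned cells, with a line joining the 2 sums of each lot. For Kit each line falls, from 89.9 to 120.8 CPM without Stra8 to 66.8 to 85.2 CPM with it.

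The genes most like each member in pattern were found by Pearson's r of log2(CPM + 1) over the 21 sums of 7 classes in 3 lots, which share libraries, so r is a description over few cell types. Nearest to Kit were Acot9 (r = 0.96), Tdrd7 (0.95), Foxn2 (0.92), Dhx32 (0.91) and Fgd6 (0.90), all highest in germ-like cells. Nearest to Kitl were Cpe (0.94), Gm17660 (0.91), Wnt6 (0.91), Bmp2 (0.91) and Lgals7 (0.90), of which Wnt6 and Bmp2 are among the markers that named the pre-granulosa-like class. Near to Cxcl12 were Unc5c (0.94), Robo2 (0.92), Pdgfra (0.92) and Nrxn3 (0.92), each highest in stromal-like cells. Nearest to Cxcr4 were Smagp (0.90), Hhex (0.89), Spns2 (0.89), Pecam1 (0.89) and Dusp2 (0.89), each highest in endothelial-like cells, and Pecam1 encodes the CD31 by which cells were held back. Between members, Kit and Cxcr4 were most alike (r = 0.76).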

How the data were processed

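Droplet libraries of 3 thawed FOSC lots were analysed, 1 per lot. The authors extracted barcodes with UMI-tools, used STAR 2.7 to align reads to GRCm38, dropped those with several positions, assigned them to genes with featureCounts 2.0.1 and deposited UMI counts per gene and cell without normalization. The strand setting and the annotation release are not given in the sources used here. The 4 genes, the pathway lists and the tests were chosen with earlier results of these data known.

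Cells with 200 to 9000 genes and at most 10% mitochondrial UMIs were kept, as in the study's methods. Cells were scaled to 10000 UMIs, put on a log scale and clustered with Seurat 5.3.0 (R 4.3.3) on 2000 variable genes, from which the 4 genes and all list genes were left out, with 50 principal components and a resolution of 0.8. A cluster took a name from 12 marker lists where its score was at least 1 and led the next list that met the other conditions by 0.25, at least 3 markers were raised and at least 2 had a UMI in 60% of its cells. A cluster led by markers of another list, or a shallow one led by none of its own, stayed unnamed. Doublets were called per lot with Scrublet in Scanpy 1.11.5 (Python 3.11.15) at an expected rate of 8% and removed only in an alternative. Of all kept cells, 835 had under 4000 UMIs and were left out where cells were thinned.

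The sums per class and lot (at least 10 cells in each lot, Sertoli-like and unnamed cells left out) went into the quasi-likelihood test of edgeR 4.0.16, with TMM scaling and the filterByExpr filter on low counts, and with DESeq2 1.42.0 as an alternative. Such a scaling makes levels relative to the other RNA of a class. On simulated data, at a threshold of 5%, false calls were 6.77% of calls in germ-like against somatic sums (14163 genes), 12.4% in stromal-like against pre-granulosa-like sums (14451 genes) and 7.65% in the Stra8 split (7918 genes). In these simulations 200 genes were changed, all others had equal means in the groups compared, and sums were drawn independently, without a lot effect. The real data differ in this, so these shares are not error rates of the reported calls. The lots are pools of embryos, and p-values measure the spread between these pools. The smallest sum held 184947 UMIs, and intervals and limits from a count of 0 cover counting error only (95%, 3 counts). Sums of 1 lot come from the same pool, so the lots pair them. Over 63 pairs of sums, their deviations from the class means had a median r of 0.146 (41 pairs over 0.1), and a median r of 0.240 over the 3 pairs of the Stra8 split (3 over 0.1). Of each list the text names the called genes with the 4 largest log2 fold changes in a comparison, and for each member the 5 genes of at least 20 CPM in a class that are most like it, of which 1 is not reported here. Alternatives were RLE in place of TMM, DESeq2, a block for the lot, all genes kept, only the classes compared, doublets removed, a stricter cell filter (1000 genes, 5% mitochondrial UMIs), resolutions of 0.4 and 1.2, germ cells taken as those with 5 or more Ddx4 and Dazl UMIs, and each lot left out. Leaving out cluster 2 or cluster 3 was added after the data were seen. GENCODE's annotation of GRCm38 gave the positions.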

Additional observations from a re-analysis of the deposited data

Results flagged for a closer look

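In 4 unnamed clusters the mean level of a gene over the lots was above that of each of the 3 large somatic classes. No marker list named these clusters, so they entered none of the comparisons above, and their signals are given as values. Kitl was 867 ± 74.4 CPM (SD, n = 3 lots) in cluster 12, above the 571 CPM of pre-granulosa-like cells. Its 720 cells had a median of 2673 UMIs, 0.243 of the median of their lots, and were led by Lars2 and Pla2r1. Kit was 28.9 ± 3.48 CPM in the same cluster. Kit reached 80.7 ± 26.5 CPM in cluster 18, with 65.0, 65.8 and 111 CPM in lots 26, 29 and 30 from 63, 65 and 24 cells, led by Npy, Cdh16, Lhx1 and Pax2, genes known from mesonephric tubules. Its value in lot 30 is above the germ-like 84.0 CPM of that lot. Cxcl12 was 156 ± 60.4 CPM in cluster 14, with 142, 103 and 222 CPM in the 3 lots, led by the steroidogenic genes Insl3, Cyp11a1 and Cyp17a1, and its 31 cells in lot 30 gave the highest value. Stromal-like cells had 111.3, 179.1 and 111.8 CPM in the same lots, so in lot 29 cluster 14 stood below them. Cluster 14 had 130, 261 and 31 cells in lots 26, 29 and 30, the same order of lots as Sertoli-like cells with 89, 285 and 16. Whether both share a source was not tested. Cxcr4 was 3.57 ± 0.386 CPM in cluster 11, with 4.01, 3.40 and 3.30 CPM, led by Lypd1, Pax8 and Aldh1a3. Each of these lot values is above the germ-like one of its lot (3.04, 2.48 and 2.82 CPM). No test was run on these clusters.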

How the results depend on the processing

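The 26 tests of Kit, Kitl, Cxcl12 and Cxcr4 were repeated in 383 further fits, of which 369 kept direction and side of the threshold, 6 passed where the reported fit did not, 5 lost the call and 3 turned direction. The 96 list genes named were repeated in 1432 fits, of which 37 lost the call and 1 turned.
The lost calls of members were Cxcl12 in germ-like against endothelial-like cells (-0.82 without lot 30, the range without each lot being -1.25 to -0.82) and Kitl in endothelial-like against somatic cells (-0.40 with RLE scaling, -0.41 with DESeq2, -0.42 under the stricter cell filter and -0.41 without lot 30, the range without each lot being -0.65 to -0.33). Turned directions concerned values that had not passed: Kit in stromal-like against pre-granulosa-like cells (0.016 at resolution 0.4) and Cxcr4 in stromal-like against epithelial-like cells (0.15 at resolution 0.4, 0.073 without lot 30). Cxcl13 in epithelial-like against pre-granulosa-like cells was -0.13 without doublets.
In the Stra8 split Kit passed with the lot as a block (-0.51), without thinning (-0.50) and at 3 or more Stra8 UMIs (-0.56), and Kitl with the block (-0.83), without the low-count filter (-0.79) and without lot 29 (-0.87, the range without each lot being -0.87 to -0.76). The block changed no other call of a member. By lot, the direction of Kitl in this split turned in lot 30 without doublets, on 2 UMIs in cells without Stra8, and in lot 29 without thinning. Genes higher and lower with Stra8 numbered 226 and 195, but 77 and 67 with DESeq2, 612 and 684 with the block, 730 and 688 without thinning, 865 and 802 at 3 UMIs, and 354 higher without the filter.
Leaving out each lot in turn gave 22 to 214 genes higher and 18 to 221 lower with Stra8, with the lowest counts without lot 26 (22 and 18) and lot 30 (59 and 32). It gave 1735 to 2847 genes lower in endothelial-like than in somatic cells in place of 3484, lowest without lot 26 and at 2212 without lot 30, and 1661 to 2376 higher and 1256 to 2295 lower in stromal-like than in epithelial-like cells (2231 lower in all lots, and 3658 with the block). Scaling by RLE moved the median of all genes in germ-like against somatic cells from -0.08 to 0.05.
Kit in germ-like cells was 91.5 CPM without doublets, and Cxcl12 in stromal-like cells 194 CPM at resolution 0.4 and 198 without cluster 3. Thinning to 2000 and to 8000 UMIs gave Kit in 15.1% and 46.0% of germ-like and Kitl in 63.5% and 95.1% of pre-granulosa-like cells, Cxcr4 in 0.366% and 2.33% of germ-like cells, and Cxcl12 in 17% of stromal-like cells at 2000. Why these values moved was not tested, beyond the fewer UMIs and fewer lots that some alternatives hold by construction. Cxcr4 in stromal-like against epithelial-like cells gave no value with only the classes compared in the model. Depth limits Cxcr4 most, at 85 to 176 UMIs per lot.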

Other observations

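Over all kept cells of a lot, Kit stood at 22.3, 13.6 and 13.4 CPM in lots 26, 29 and 30, and Cxcr4 at 1.4, 0.972 and 1.07 CPM. Lot 26, which was highest for both receptors, also had the largest shares of germ-like cells (7.72%, 3.94% and 3.61%) and endothelial-like cells (1.79%, 1.03% and 0.813%). Kitl was 298, 291 and 325 CPM over all cells, and Cxcl12 32.9, 50.8 and 32.6 CPM, highest in lot 29. The part of cell type shares in these lot values was not tested.

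Sertoli-like cells, with 89, 285 and 16 cells in lots 26, 29 and 30, had a Kitl level of 341 ± 34.4 CPM (SD, n = 3) and little of the other 3 genes. Kit was 0.768 ± 0.740 CPM on 5 UMIs, Cxcl12 5.83 ± 2.50 on 32 UMIs and Cxcr4 0.889 ± 0.972 on 8 UMIs. Cluster 16, an unnamed cluster of 377 cells led by Gdf10 and Lum with a median of 17032 UMIs, had 347 ± 25.2 CPM of Kitl and 60.1 ± 16.2 CPM of Cxcl12. Schwann and chromaffin-like cells had 57.0 ± 41.3 CPM of Cxcl12 on 41 UMIs in 53 cells.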
